A study of Mus musculus with 14 samples.

Results

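The open chromatin described here is that of the mouse globin loci: the alpha globin cluster on chromosome 11 with its neighbour Nprl3, and the beta globin cluster on chromosome 7. It consists of 48 of the 92842 peaks of 1 merged list, 28 at the alpha locus and 20 at the beta locus. Members were the peaks that the list gives to Hba-a1, Hba-a2, Hba-x, Hbb-b2, Hbb-bt or Nprl3, which were 16 peaks. The other 32 are given to further names but have their centre within 100 kb of Hba-a1 and Hba-a2 on chromosome 11 or of Hbb-bt on chromosome 7, the member globin genes with both a peak and a place in the reference. All 16 peaks with a member's name also lay within those windows, and Hba-x had none.

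The list comes from ATAC-seq, in which the transposase Tn5 cuts and tags accessible DNA. The 14 libraries were made from wild-type C57BL/6 mice aged 8 to 12 weeks, 2 for each of 7 populations sorted by antibody staining. Bone marrow gave multipotent progenitors (MPP), the common progenitors of the myeloid (CMP) and lymphoid (CLP) lines, the more restricted progenitors of the granulocyte and macrophage line (GMP) and of the megakaryocyte and red cell line (MEP), and early B cells (ProB). Thymus gave early T cells (ProT). The labels do not say whether libraries came from separate animals or whether animals were pooled. The list pools all libraries and holds no value per library, so it does not show in which population a region was open, depth is unknown, and no population was compared with another. As a check of the list, 15 of 17 marker genes of the sorted populations had a peak within 1 kb of a start, the exceptions being Elane and Tcf7, while 68.0% of all names with a peak had one that near. None of 3 marker genes of other cell types (Ncr1, Cdh5 and Alb) had one, although Cdh5 was given 9 peaks and Alb 1 farther away.

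Haemoglobin is a tetramer of alpha-like and beta-like chains. Each kind of chain is encoded by a cluster of genes that are switched on in developmental order, embryonic genes first and adult genes later, in red cell precursors. Both clusters are driven by distant enhancers: in the mouse those of alpha globin lie mostly in the introns of the neighbouring housekeeping gene Nprl3, and those of beta globin form the locus control region upstream of the embryonic gene Hbb-y. GATA1, TAL1 and KLF1 are the best known erythroid factors at these elements. Nprl3 itself encodes a subunit of GATOR1, which restrains the growth regulator mTORC1 when amino acids are scarce.

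The 250 bases upstream of the starts of 8 genes are shown, because the text describes which of these starts had a peak and which motifs lay there. Sequences are from RefSeq (build GRCm38.p6, which shares its chromosomes with mm10) and run 5′ to 3′ on the gene's strand up to the base before its start. Capitals mark matches on either strand to the following elements: AGATAA and the related TGATAA, bound by GATA factors; CCNCNCCC, bound by KLF factors; the core of the CTCF motif; the promoter element CCAAT; and the element TATAA that places the start of transcription. The first pair, Hbb-bs (chr7:103827929-103828178, minus strand) and Hbb-bt (chr7:103813924-103814173, minus strand), are adult beta genes. Hba-a1 (chr11:32283422-32283671) and Hba-a2 (chr11:32296242-32296491) are the adult alpha genes and Hba-x (chr11:32276350-32276599) the embryonic zeta gene, all on the plus strand. Hbq1b (chr11:32286714-32286963) and Hbq1a (chr11:32299819-32300068), on the plus strand, are theta globin genes, and Nprl3 (chr11:32267708-32267957) lies on the minus strand.
Hbb-bs: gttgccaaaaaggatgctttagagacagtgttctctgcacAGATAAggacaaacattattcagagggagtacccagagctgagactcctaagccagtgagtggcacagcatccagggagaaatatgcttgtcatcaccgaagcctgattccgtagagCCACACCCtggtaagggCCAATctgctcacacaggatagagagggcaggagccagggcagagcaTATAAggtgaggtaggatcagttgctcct
Hbb-bt: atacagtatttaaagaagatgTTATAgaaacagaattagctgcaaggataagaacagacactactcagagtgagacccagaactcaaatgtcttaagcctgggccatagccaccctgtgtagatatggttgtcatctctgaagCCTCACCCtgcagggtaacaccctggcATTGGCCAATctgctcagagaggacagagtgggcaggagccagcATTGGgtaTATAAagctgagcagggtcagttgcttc
Hba-a1: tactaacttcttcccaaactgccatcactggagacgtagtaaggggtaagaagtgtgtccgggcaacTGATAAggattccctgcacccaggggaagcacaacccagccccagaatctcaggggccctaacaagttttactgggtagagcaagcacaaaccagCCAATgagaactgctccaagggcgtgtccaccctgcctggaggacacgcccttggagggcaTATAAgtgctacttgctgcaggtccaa
Hba-a2: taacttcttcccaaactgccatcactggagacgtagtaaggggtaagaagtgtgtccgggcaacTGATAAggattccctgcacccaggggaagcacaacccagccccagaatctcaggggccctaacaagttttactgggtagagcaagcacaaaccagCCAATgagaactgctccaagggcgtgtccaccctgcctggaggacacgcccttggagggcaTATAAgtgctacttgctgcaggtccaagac
Hba-x: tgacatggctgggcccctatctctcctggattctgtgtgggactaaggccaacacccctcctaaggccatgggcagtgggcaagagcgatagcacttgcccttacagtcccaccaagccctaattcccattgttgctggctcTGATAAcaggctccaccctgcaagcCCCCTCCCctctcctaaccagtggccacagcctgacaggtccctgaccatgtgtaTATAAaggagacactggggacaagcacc
Hbq1b: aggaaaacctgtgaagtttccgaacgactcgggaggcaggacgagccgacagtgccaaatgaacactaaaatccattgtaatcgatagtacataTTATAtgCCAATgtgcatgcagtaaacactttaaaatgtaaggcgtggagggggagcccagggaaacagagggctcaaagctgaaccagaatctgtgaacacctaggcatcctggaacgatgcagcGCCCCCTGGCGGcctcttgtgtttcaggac
Hbq1a: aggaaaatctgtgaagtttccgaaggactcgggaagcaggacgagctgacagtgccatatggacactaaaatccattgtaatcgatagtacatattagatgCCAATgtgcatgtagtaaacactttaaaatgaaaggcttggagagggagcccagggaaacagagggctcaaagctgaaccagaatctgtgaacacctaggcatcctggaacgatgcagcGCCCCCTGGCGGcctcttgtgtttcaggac
Nprl3: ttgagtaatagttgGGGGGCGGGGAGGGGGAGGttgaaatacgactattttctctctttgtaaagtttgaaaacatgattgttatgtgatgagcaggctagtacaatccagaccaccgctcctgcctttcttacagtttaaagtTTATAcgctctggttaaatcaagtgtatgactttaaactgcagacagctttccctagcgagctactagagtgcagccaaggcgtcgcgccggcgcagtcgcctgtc

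The question at the starts was which globin genes had accessible chromatin there. Of the 9 globin genes with an entry in the table of starts, 4 had a peak that shared at least 1 base with the 300 bases from 250 upstream to 50 downstream of the start. They were both adult beta genes and both theta genes. Over all 32851 starts of the table the share was 41.7%, so the globin count of 4 of 9 was close to the background. Neither adult alpha gene had such a peak, nor did the embryonic genes Hba-x and Hbb-y, nor Hbb-bh2.

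At Hbb-bt the peak chr7:103813708-103814206 held all 250 upstream bases, and its centre lay 34 bp upstream of the start. At Hbb-bs the peak chr7:103827739-103828237 likewise held all 250, with its centre 60 bp upstream. These are the beta genes of the haplotype that C57BL/6 mice carry. The theta genes, globin genes of uncertain function, were covered too: the peak chr11:32286776-32287274 was centred 61 bp downstream of the start of Hbq1b and held 188 of its upstream bases. The peak chr11:32299824-32300322 was centred 4 bp downstream of the start of Hbq1a and held 245.

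At the adult alpha genes the nearest peaks lay behind the gene. The one nearest to the start of Hba-a1 (chr11:32285057-32285555) was centred 1634 bp downstream of it and began 571 bases from the gene's end. The one nearest to Hba-a2 (chr11:32297360-32297858) was centred 1117 bp downstream, 50 bases from the end of the gene. The distances of Hba-a1 and Hba-a2 were close to the median over all starts, 1142 bp. The remaining globin genes were farther from any peak: 7.54 kb for Hba-x, 6.08 kb for Hbb-y and 12.5 kb for Hbb-bh2. Nprl3 had a peak at its start (chr11:32267335-32267833), centred 123 bp downstream and holding 126 of the 250 upstream bases shown.

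**Figure D1:**
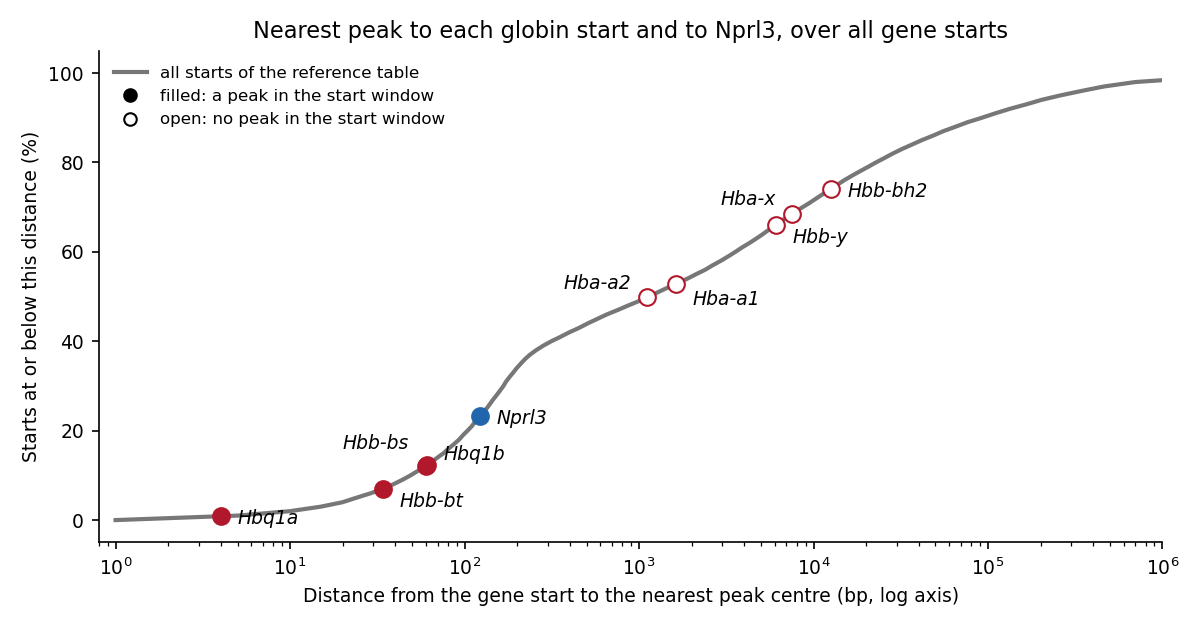
Distance from the start of each globin gene and of Nprl3 to the nearest peak centre (bp, log axis) against the percentage of all 32851 starts at or below that distance. The grey curve is made from all starts, so each point lies on it, and filled points have a peak in the start window. The theta and adult beta genes and Nprl3 lie between 4 and 123 bp, Hba-a2 and Hba-a1 at 1117 and 1634 bp, and Hbb-y, Hba-x and Hbb-bh2 at 6081 bp or more.

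Sequence identity differed between the duplicated pairs. Over a global alignment, the upstream stretches of Hba-a1 and Hba-a2 were identical at 247 of 253 positions (97.6%), all in an unbroken run. The other positions lay at the ends, where the stretches are offset against each other. Within the 300-base windows 297 bases in a row were the same. Those of Hbq1b and Hbq1a were identical at 239 of 250 positions (95.6%), with a longest common run of 105 bases. Those of Hbb-bs and Hbb-bt were 70.9% identical with a longest run of 14. The other 33 pairs of the 9 globin genes ranged from 45.4% to 54.4%, with no run over 12 bases. The pair with the longest identical run was thus the one without a peak at either start. The theta pair, which had differences inside its alignment, had a peak at both. Hba-x, Hbb-y and Hbb-bh2, whose pairs are all among the 33 of low identity, had no peak at the start either. How the authors treated reads that match 2 places equally well is not given in the sources used here, and its part in the missing alpha peaks was not tested.

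**Figure D2:**
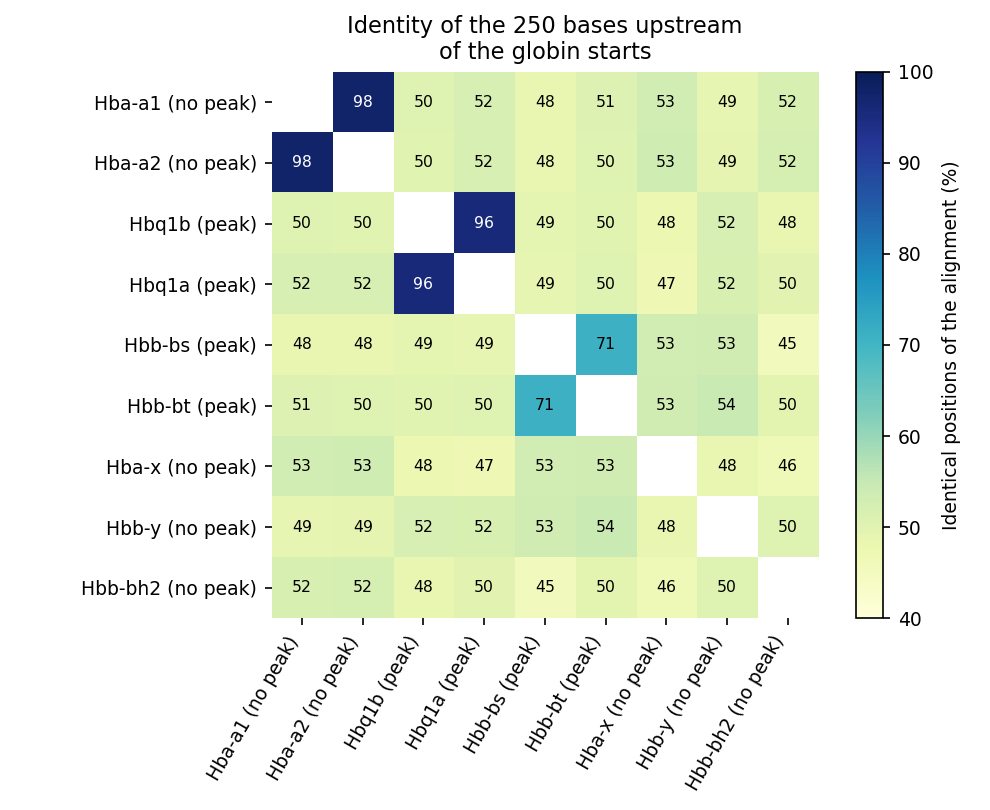
Percentage of identical positions in pairwise global alignments of the 250 bases upstream of 9 globin starts, with each gene marked by whether its start window has a peak. Only the Hba-a1 and Hba-a2, Hbq1b and Hbq1a, and Hbb-bs and Hbb-bt pairs rise above 54.4%.

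Motif matches in these upstream stretches were counted on both strands and set beside all 32851 stretches of the same length. A GATA match (AGATAA or TGATAA) was present in 6 of the 9 globin stretches, against 16.6% of all. Hba-x, Hba-a1, Hba-a2 and Hbb-y had TGATAA (7.94% of all), and Hbb-bh2 and Hbb-bs had AGATAA (9.99% of all). In Hba-a1 the match began 183 bases before the start, in Hba-x 108 and in Hbb-bs 210. Hbb-bt and both theta genes had neither form. Of the 4 genes with a peak at the start, only Hbb-bs therefore had a GATA match, while all 5 without one did. Over all genes a GATA match was also less frequent in stretches whose start had a peak, at 9.51%.

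The KLF pattern CCNCNCCC was present in Hba-x, Hbb-bs and Hbb-bt, against 45.9% of all stretches. The stricter form CCACACCC, known as the binding site of KLF1 in the adult beta promoter, was present only in Hbb-bs among the 9 (3.20% of all), 93 to 86 bases before the start. CCAAT, bound by NF-Y, was present in 7 of 9 (33.8% of all), and was missing from Hba-x and Hbb-bh2. The planned TATA form, TATAAA, was present in 2 of 9, Hba-x and Hbb-bt (12.4% of all). The shorter TATAA, added after the sequences had been seen, was present in 6 of 9 (22.8% of all). In Hba-x, Hba-a1, Hba-a2, Hbb-bs and Hbb-bt it began 27 to 30 bases before the start. The Hbq1b match, on the other strand at 156 bases, lay elsewhere, as did a second match of Hbb-bt at 229. The CTCF core was present in both theta genes and in none of the other 7 (7.17% of all and 11.3% of those whose start had a peak), at 30 to 19 bases before the start, inside the peak in each case. CTCF is the zinc finger protein that anchors loops of chromatin and can block enhancers.

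The E-box CANNTG, the short site of TAL1 and its partners, was present in 7 of 9 but also in 66.2% of all stretches. Its form CAGNTG was present in 4 of 9, against 44.8%. TGANTCA, the core shared by NF-E2 and AP-1, was present only in Hbb-bh2 (6.75% of all). The longer NF-E2 form GCTGAGTCA (0.390% of all), the ETS core AGGAAG (29.5%) and the RUNX site TGTGGT (14.05%) were not found in any of the 9. The Nprl3 stretch had 4 overlapping KLF matches 236 to 218 bases before the start and no GATA match. Each stricter form is contained in the looser pattern of the same factor, so those counts overlap, and near-identical gene pairs count as 2.

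The second question was where the distal peaks lay. From Nprl3 to the embryonic gene Hba-x there were 8 peaks in 30.5 kb, with gaps of 1.48 to 8.94 kb between centres, and 7 of them lay inside Nprl3, which is 35.7 kb long. Of 3669 protein-coding genes with a length of 25 to 50 kb, 5.23% held 7 or more peak centres, and the median was 2. Measured from the start of Hba-x, the 8 centres were 38.1, 30.9, 29.4, 25.6, 20.2, 11.3, 9.02 and 7.54 kb upstream. Alpha globin enhancers of the mouse are known as R1, R2, R3, Rm and R4 in this order towards the genes. The peaks at 30.9, 25.6, 20.2, 11.3 and 7.54 kb were paired with these names from general knowledge of their order and spacing, not from published coordinates, so these names are assumed. The peak at 29.4 kb lies in the same intron as the one paired with R1.

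The peak paired with R1 (chr11:32245470-32245968) lay in intron 6 of 13 of Nprl3. The one paired with R2, known as one of the strongest alpha globin enhancers, was chr11:32250785-32251283 in intron 4, that is 32.6 kb from the start of Hba-a1 and 45.5 kb from that of Hba-a2. The peak paired with R3 (chr11:32256117-32256615) lay in intron 2 and the one paired with Rm (chr11:32265057-32265555) in intron 1. The peak paired with R4 (chr11:32268812-32269310) was the only one of the 5 outside Nprl3, 1354 bp upstream of the Nprl3 start. The remaining 3 were the Nprl3 start itself, a further peak in intron 6 (chr11:32246985-32247483), and one in intron 8 of 12 of another transcript (chr11:32238280-32238778).

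The list names a peak for the nearest start, so 2 peaks inside Nprl3 carry another name. The R1 peak and the intron 8 peak lie in Nprl3 but carry the name of Mpg, a DNA glycosylase of base excision repair, at 19.2 and 12.0 kb from its start. The other 6 of the 8 carry the name Nprl3, which 27.8% of the 19105 names in the list matched or exceeded in number of peaks. None of the 8 carries the name of a globin gene. Between the R4 peak and the first peak behind Hba-a1 was a gap of 16.2 kb, in which Hba-x and the start of Hba-a1 lie.

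Around the adult alpha and theta genes 6 peaks lay within 14.8 kb, all with a globin name. The duplicated unit of an alpha gene followed by a theta gene was not matched peak for peak. Behind the Hba-a1 start, peaks were centred at 1.63 and 3.35 kb, the second at Hbq1b. Behind the Hba-a2 start, they were centred at 1.12, 2.02 and 3.58 kb, the last at Hbq1a. A peak was also centred 2.77 kb in front of Hba-a2 (chr11:32293469-32293967), whereas the nearest one in front of Hba-a1 was the R4 peak at 14.6 kb. The names Hba-a1 and Hba-a2 do not keep to the gene copies in the list. The peak given to Hba-a1 is the one in front of Hba-a2. Hba-a2 has its name on 2 peaks, of which one lies behind Hba-a2 and the other behind Hba-a1. The start that the list implies for the peak behind Hba-a1, 32283675, is 3 bp from the RefSeq start of Hba-a1, 32283672.

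**Figure D3:**
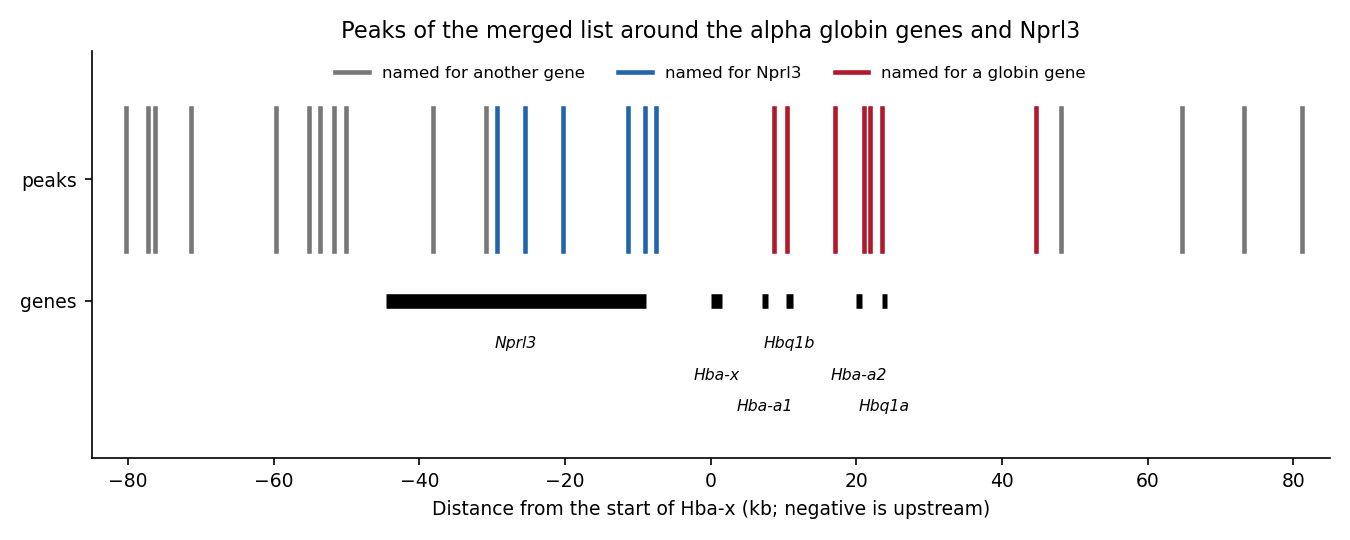
Peak centres of the alpha globin locus (vertical lines, coloured by the name the list gives) above the genes of the cluster and Nprl3 (black bars), by distance from the start of Hba-x in kb, negative values being upstream. The lines upstream run from 80.3 to 7.54 kb upstream. Of those between 38.1 and 7.54 kb, 7 stand over Nprl3. None falls on Hba-x, and 6 stand among the adult alpha and theta genes.

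Upstream of Hbb-y, at the place of the beta globin locus control region, 7 peaks lay within 18.0 kb. They are the peaks within 30 kb upstream of Hbb-y and were not matched to published coordinates of the control region. Their centres were 6.08, 8.00, 8.53, 12.7, 17.6, 21.7 and 24.1 kb upstream of the Hbb-y start, and the gaps between them ran from 0.539 to 4.83 kb. The first 4 carry the name Hbb-y, from chr7:103859039-103859537 to chr7:103865681-103866179. The other 3 (chr7:103870510-103871008, chr7:103874672-103875170 and chr7:103877041-103877539) carry the name of the olfactory receptor gene Olfr66, a smell receptor gene of the large family in which the beta globin cluster is embedded. No peak lay between these 7 peaks and the promoter of Hbb-bs. That gap of 31.3 kb holds the embryonic genes Hbb-y and Hbb-bh1 as well as Hbb-bh2 and Hbb-bh3, and none of these 4 shares a base with a peak.

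The adult beta genes had 9 peaks within 20.9 kb, unevenly divided. Within 10 kb of its start Hbb-bt had 7 peaks, a number that 0.892% of all starts reached, whereas Hbb-bs had 2, which 47.0% reached. Besides its promoter peak, Hbb-bt had 1 peak 1363 bp upstream (chr7:103815037-103815535) and 5 behind it. Those 5 had their centres 1.55, 2.33, 3.41, 4.75 and 6.84 kb downstream of the start, from chr7:103812120-103812618 to chr7:103806838-103807336. The peak nearest to the gene overlaps its end. Hbb-bs had its promoter peak and 1 behind the gene (chr7:103825882-103826380), 1.80 kb downstream of the start.

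The 5 downstream peaks are those given to Hbb-b2. In the reference table Hbb-b2 and Hbb-b1, the minor and major adult beta genes of other mouse strains, have no place on the C57BL/6J chromosome, and the start the list uses for Hbb-b2 is base 103813923, the start of Hbb-bt. All 7 peaks of the names Hbb-b2 and Hbb-bt are thus peaks of 1 gene start. Likewise the promoter peak of Hbb-bs is listed as that of Hbb-b1, and only the peak behind it carries the name Hbb-bs.

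Farther out, the beta window held 4 peaks, each given to an olfactory receptor gene. One was centred 1258 bp upstream of Olfr67 (chr7:103792839-103793337), 20.8 kb beyond the Hbb-bt start. Another lay next to Olfr630 (chr7:103762183-103762681). On the other side 2 lay 57.0 and 60.1 kb upstream of Hbb-y (chr7:103909975-103910473 and chr7:103913012-103913510), next to Olfr65 and Olfr631. None of the 10 olfactory receptor starts in the window had a peak in its 300 bases. Over all 948 olfactory receptor starts 3 had one (0.316%), and their median distance to a peak was 90.6 kb, against 1.26 to 21.1 kb for the 10 in the window. These 10 were chosen by their place in a window drawn around a globin gene with peaks, so short distances follow from that choice.

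**Figure D4:**
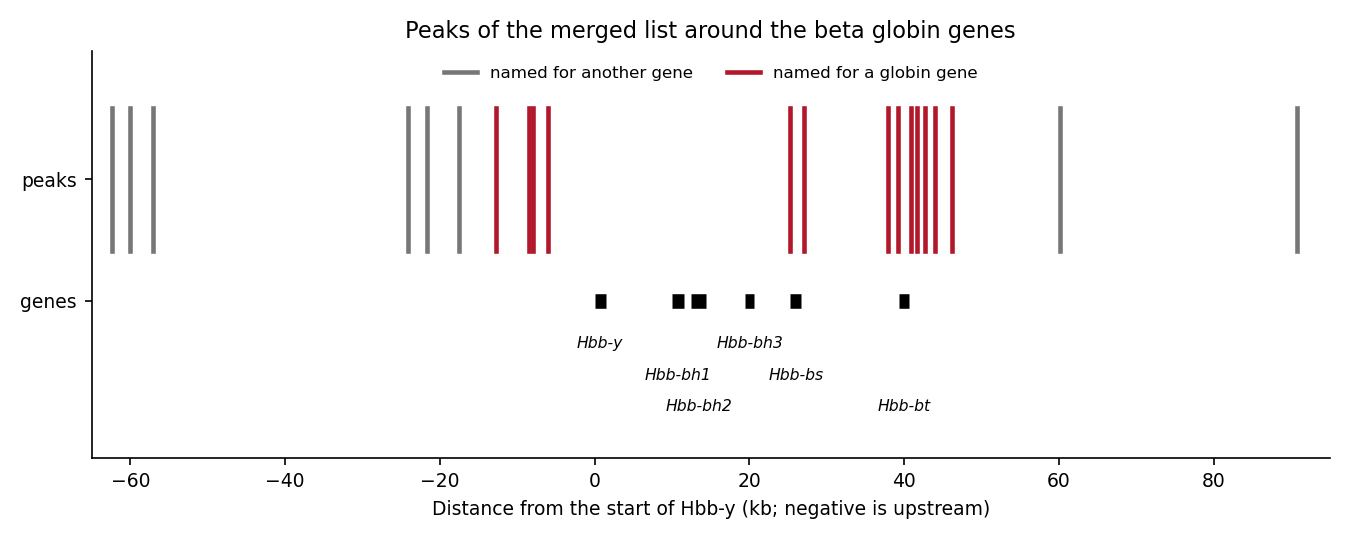
Peak centres of the beta globin locus (vertical lines, coloured by the name the list gives) above the globin genes (black bars), by distance from the start of Hbb-y in kb, negative values being upstream. At the place of the locus control region 7 lines stand 6.08 to 24.1 kb upstream of Hbb-y. None stands between Hbb-y and Hbb-bs, and 7 crowd around Hbb-bt. The leftmost line, 62.3 kb upstream, is outside the window.

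Both loci were denser in peaks than their chromosomes. The alpha window of 214 kb held 13.1 peaks per 100 kb, against 5.03 on chromosome 11, and the beta window of 201 kb held 9.93, against 3.87 on chromosome 7. The autosomes together held 3.80. These densities were not tested. Gene starts give another scale. Within 100 kb of the Hba-a1 start lay 28 peaks, a number that 5.87% of all starts reached, and within 100 kb of the Hbb-bt start lay 20, which 22.9% reached. The median over all starts was 12.

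Crowding at short range differed between the loci by level. At least 1 other peak lay within 10 kb of all 28 alpha peaks and of 18 of the 20 beta peaks, and at least 2 others of 24 and 16. At least 3 others lay that near to 18 of the 28 and 13 of the 20. At 4 or more the share was higher at the beta locus, with 11 of 20 against 7 of 28 (13.4% of all peaks). It was also higher there at 5 or more, where 7 of the 9 such beta peaks are those around Hbb-bt. Each of the 7 peaks around Hbb-bt had 6 others within 10 kb, and 2.35% of all peaks in the list had 6 or more. In the beta window 9 of 20 peaks had at least 5 others within 10 kb, in the alpha window 1 of 28, and in the whole list 5.94%. The median was 4 at the beta locus, 3 at the alpha locus and 1 over all peaks. Peaks within 10 kb of each other count one another, so these values are not independent.

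**Figure D5:**
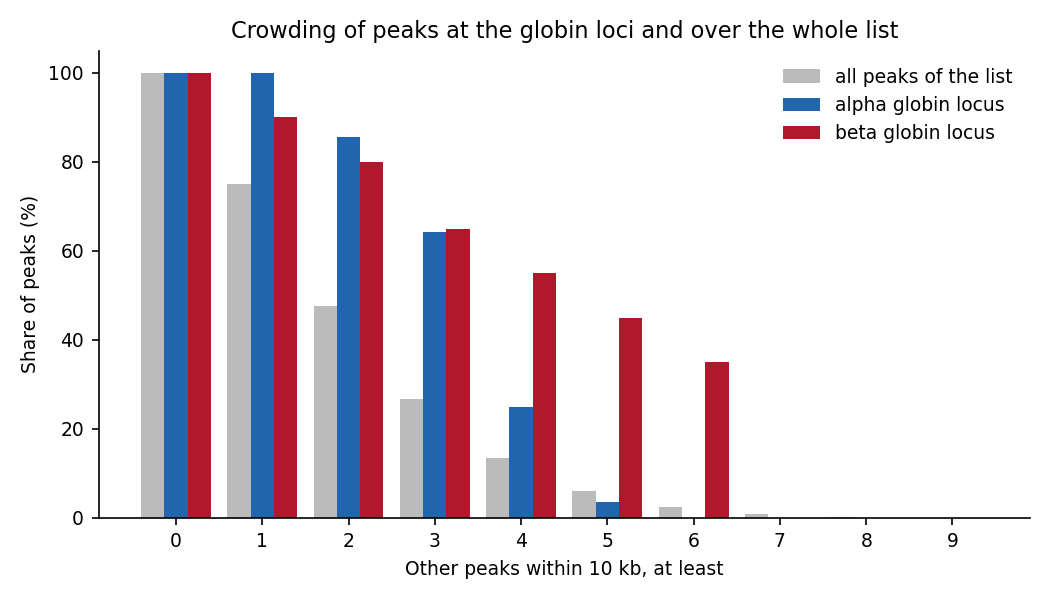
Share of peaks (%) with at least the given number of other peaks within 10 kb, for all 92842 peaks (grey), the 28 of the alpha locus (blue) and the 20 of the beta locus (red). The beta locus holds 7 peaks with 6 others, and the alpha locus none.

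By annotation the loci differed in kind. At the alpha locus 12 of 28 peaks (42.9%) lay in introns and 6 (21.4%) at a promoter, and at the beta locus 15 of 20 (75%) were intergenic, none was intronic and 2 (10%) were at a promoter. Over the whole list the shares were 42.0% intronic, 39.3% intergenic and 11.6% at a promoter. Transcription termination sites held 2 alpha and 3 beta peaks, all behind adult globin genes, while they held 1.61% of all peaks. Only 1 of the 48 peaks was placed in a repeat, a simple repeat in intron 1 of Rhbdf1. In the whole list 16.0% were, and none of the 26 peaks with a globin name or that of Nprl3 was.

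The flank of the alpha locus beyond Nprl3 held peaks at several starts. Il9r, an interleukin receptor gene, and Snrnp25, a gene of the minor spliceosome, had peaks centred 74 and 126 bp upstream of their starts (chr11:32200104-32200602 and chr11:32205040-32205538). Mpg had one centred 69 bp downstream (chr11:32226325-32226823). Rhbdf1, which encodes an inactive rhomboid protease, was given 3 peaks, the nearest 695 bp upstream of a start. On the other side of the cluster, a peak 44.6 kb downstream of the Hba-x start (chr11:32320991-32321489) still carries the name Hbq1a. The 4 peaks beyond it are given to Sh3pxd2b, an adaptor protein gene, which had no peak in its start window.

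The partners of the members were described from lists. All 8 GATOR genes, Nprl3 included, had a peak within 1 kb of a start, among them the GATOR1 subunits Depdc5 (3 peaks, the nearest 23 bp upstream) and Nprl2 (1 peak, 165 bp upstream), which join Nprl3 in the complex. Of all 19105 names with a peak 68.0% had one that near. Of 13 globin names in a list that also holds the member Hba-x, 8 had a peak and 3 had one within 1 kb: Hbq1a, Hbq1b and Hbb-b1. The globins outside the clusters had none there, with the nearest peak 6826 bp from the start of Mb (myoglobin), 10812 bp from Cygb (cytoglobin) and 19891 bp from Ngb (neuroglobin).

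Of 15 regulators of the globin genes 14 had a peak, and all 14 had one within 1 kb, against 68.0% of all names with a peak. For these 15 genes the median number of peaks was 6, against 3 over all names with a peak. Klf1, the erythroid activator of adult beta globin, had its nearest peak 1 bp from its start (chr8:84901680-84902178) among 3 peaks, and Gata1 had 3, with one 131 bp upstream of a start (chrX:7967792-7968290). Tal1, Nfe2 and Ldb1, which encodes the protein that ties enhancers to promoters, had 6 each. Among repressors of embryonic or fetal globin genes the number ranged widely, with 40 for Bcl11a, 31 for Sox6, 6 for Nr2c2 and 5 each for Nr2c1 and Zbtb7a. Among the others, Lmo2 had 16 peaks and Zfpm1, the gene of a GATA1 cofactor, 28. The exception was Ahsp, the chaperone of free alpha chains, to which no peak was given. These numbers follow the names in the list. With peaks given to the nearest start of the RefSeq table, Bcl11a had 15, Sox6 23, and Lmo2, Zfpm1 and Nfe2 0. Gata1 then had 4 and Tal1 and Nr2c2 5 each, while Klf1, Ldb1, Nr2c1 and Zbtb7a kept their numbers. All 8 enzymes of haem synthesis had a peak within 1 kb, against the same 68.0%, from Alas2, the erythroid first enzyme (3 peaks, the nearest 37 bp upstream), to Cpox, a late enzyme of the pathway (8 peaks, the nearest 88 bp downstream). These peaks too may come from any of the 7 populations. By nearest RefSeq start, Alas2 and Cpox had 5 peaks each, Depdc5 kept 3 and Nprl2 had 0.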

How the data were processed

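The only measurement analysed here was 1 peak list that pools the 14 ATAC-seq libraries. Per the file header, the authors ran annotatePeaks on it with the mm10 genome. HOMER 4.10.2 is the version in the submitters' processing notes. How reads were aligned, and how peaks were called, filtered and merged, is not given in the sources used here. All peaks are 499 bp wide and numbered 1 to 92842 without a gap. The deposited score is 0 throughout and was left aside. The deposited distance is in bp from the peak centre to the nearest start, positive downstream.

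The members and lists were chosen with earlier results of these data known, so counts are descriptions without a test. Windows reached 100 kb to either side of Hba-a1 to Hba-a2 and of Hbb-bt, placed on GRCm38.p6. Gene starts and upstream sequence came from the RefSeq tables; 9 globin genes and Nprl3 matched, and Hbb-bh1 did not. A start had a peak where at least 1 base of its 300-base window was shared. Alignments were global (biopython 1.88; match 1, mismatch -1, gap opening -2, extension -0.5). CCAAT and TATAA were added after the sequences had been seen. The interval and motif functions were tested on simulated data with known answers. Named were all members, every name within 100 kb and the listed partners. Motifs were planned for whole peaks, but sequence was at hand only for starts.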

Additional observations from a re-analysis of the deposited data

How the results depend on the processing

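Of 24 alternatives, 20 left the value within 1.5 times for a count or within its exact Poisson 95% interval for a density, and 4 did not. With 50 kb in place of 100 kb on either side the alpha window held 17 peaks and the beta window 13. With peaks given to the nearest start of the RefSeq table, Hbb-b2 had 0 peaks and Hbb-bt 7, since Hbb-b2 has no start there. With 200 kb the counts were 42 and 25. The wider set of globin genes left the alpha count at 28 and gave 23 for beta, adding 3 peaks given to Olfr631, Olfr632 and Olfr633. At the lower edge of the beta window a peak of Olfr243 lay 0.404 kb outside and that of Olfr630 49.9 kb inside, and at the upper edge a peak of Olfr631 lay 0.662 kb inside and another 1.60 kb outside. At the alpha window the nearest outside were 21.3 kb (Il9r) and 10.6 kb (Ubtd2) away, and the outermost inside 12.6 and 39.5 kb from the edge. With a peak centre within 500 or 1000 bp of the start, added after the data had been seen, the globin count stayed 4 of 9, against 43.9% and 49.0% of all starts. Motif counts within 100 bases of peak centres were not run, since no genome was used here. No paired analysis was possible because the list holds no value per library, and no library could be left out.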
